A study of Homo sapiens with 12 samples.

Results

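The genes described here are 10 factors of non-homologous end joining, chosen by their symbols: XRCC5, XRCC6, PRKDC, DCLRE1C, POLL, APLF, XRCC4, LIG4, NHEJ1 and TP53BP1. All 10 were found among the 25365 gene rows of the deposited table. Their transcripts were measured by RNA-seq in A549, a human lung adenocarcinoma cell line, in 4 groups of 3 libraries each. The groups were wild-type cells with vehicle (DMSO), PARP3-/- cells with vehicle, wild-type cells with 1 μM pyridostatin and PARP3-/- cells with 1 μM pyridostatin, each treated for 24 h before the RNA was taken. Pyridostatin is a small molecule that binds and stabilizes G-quadruplex (G4) DNA, a fold of guanine-rich sequence. PARP3 is an ADP-ribosyltransferase that works with end joining factors at broken DNA. The PARP3-/- cells were made with transiently expressed Cas9 and guides that removed a stretch of the first exon, and were then cloned by serial dilution, so the effect of the genotype and that of the clone cannot be told apart. In bulk RNA, fewer cells that use a gene and less RNA per cell cannot be told apart either.

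Non-homologous end joining is the main route by which human cells rejoin a double-strand break outside S phase, and it needs no copy of the sequence. The Ku heterodimer (KU80, encoded by XRCC5, and KU70, encoded by XRCC6) slides onto the end and recruits the kinase DNA-PKcs, encoded by PRKDC. Artemis (DCLRE1C) and DNA polymerase lambda (POLL) prepare ends that cannot be joined directly, and APLF is a scaffold that binds Ku and poly(ADP-ribose). DNA ligase IV (LIG4), held by XRCC4 and aided by XLF (NHEJ1), seals the break, while 53BP1 (TP53BP1) protects ends from resection and so favors this route.

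Levels are given in FPKM, a measure that divides a gene's fragments by the length of its transcript and by the number of mapped reads in the library, so that different genes can be compared per length. From the steps between low values, the libraries held about 21300000 to 30100000 reads, which put about 9620 to 14286 reads on XRCC5 and about 53 to 92 on APLF. A gene was tested where its mean over the 12 libraries was at least 1 FPKM, which 11881 genes and 9 of the 10 end joining genes passed. The exception was APLF. PARP3 itself was at 3.73 ± 0.293 FPKM (SD, n = 3) in wild-type and 4.41 ± 0.447 FPKM (SD, n = 3) in PARP3-/- vehicle cells, and it was higher, not lower, in PARP3-/- cells over both treatments (exact permutation test, p = 0.005, the smallest possible). A value over the whole gene does not check a deletion of part of 1 exon, so these levels do not test the labels. CDKN1A, a p53 target that marks the damage response, rose from 87.0 to 193 FPKM with pyridostatin in wild-type cells and from 100.1 to 208 FPKM in PARP3-/- cells (limma, Benjamini-Hochberg adjusted p = 1.12e-05 and 3.21e-05). All 5 epithelial markers were present, of which KRT19 was higher (log2 fold change 0.85) and KRT18, EPCAM and CDH1 lower (−0.24, −0.50 and −0.47) in PARP3-/- cells over both treatments (limma, adjusted p under 0.05), 5 alveolar type II markers together reached at most 0.277 FPKM in any library, and fibroblast markers together reached at most 2.00 FPKM. The fibroblast sum moved with the genotype, from 0.658 to 1.05 FPKM in the 6 wild-type and 1.505 to 2.00 FPKM in the 6 PARP3-/- libraries, as did that of 5 blood and endothelial markers, from 14.0 to 16.2 FPKM and from 18.7 to 21.1 FPKM, of which only CD68, a lysosomal protein gene, passed 1 FPKM. Their part in the genotype differences was not tested.

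One library stood apart in a way that bears on these genes. In wild-type vehicle replicate 2, genes with transcripts of at least 5090 bases had a median deviation from the mean of the other libraries of the group that was 0.403 lower on the log2 scale than that of genes with at most 2070 bases, whereas outside that group this difference lay between −0.0529 and 0.0455. Relative to the mean of replicates 1 and 3, PRKDC, with the longest transcript of the 10 (13509 bases), had a log2 ratio of −0.64 in that library. LIG4 was at −0.54, DCLRE1C at −0.39 and TP53BP1 at −0.32, while POLL was at 0.29 and XRCC6 at 0.14. APLF was at −0.20, and XRCC5, XRCC4 and NHEJ1 stayed within 0.11 of 0. Among the 10 genes the values did not follow length alone, as XRCC5 (3761 bases) was at −0.04 and DCLRE1C (3532 bases) at −0.39. The averaged values of the 10 genes are given with and without wild-type vehicle replicate 2 where they moved by more than 1.5 times or turned in sign.

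**Figure D1:**
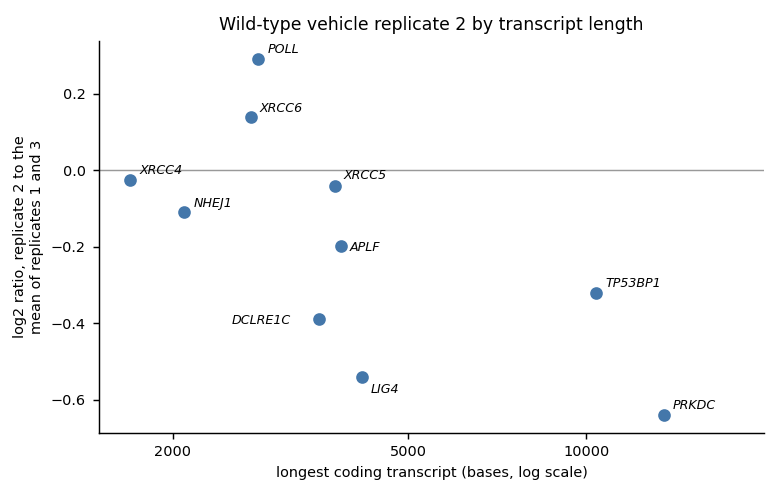
Each point is 1 of the 10 genes, placed by the length of its longest coding transcript (bases, log scale) and by the log2 ratio of its FPKM in wild-type vehicle replicate 2 to the mean of replicates 1 and 3. PRKDC (−0.64) and LIG4 (−0.54) lie lowest and POLL (0.29) highest.

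The pathway was expressed unevenly. Mean levels over the 12 libraries ran from 222 FPKM for XRCC6 to 0.717 FPKM for APLF, a span of 309-fold. XRCC5 followed at 121 FPKM, PRKDC at 26.8, XRCC4 at 12.2, TP53BP1 at 9.55, POLL at 8.37, NHEJ1 at 6.31, LIG4 at 4.23 and DCLRE1C at 2.37 FPKM. The Ku subunits thus lay above 97.2% and 94.7% of the tested genes, and Artemis, the nuclease, above 12.5%. This order was nearly fixed: each gene was above the next in all 12 libraries, except that TP53BP1 was above POLL in 9 of 12 and POLL above NHEJ1 in 11 of 12. Within a gene the spread over all 12 libraries was small, from 1.17-fold for XRCC5 to 1.74-fold for APLF.

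**Figure D2:**
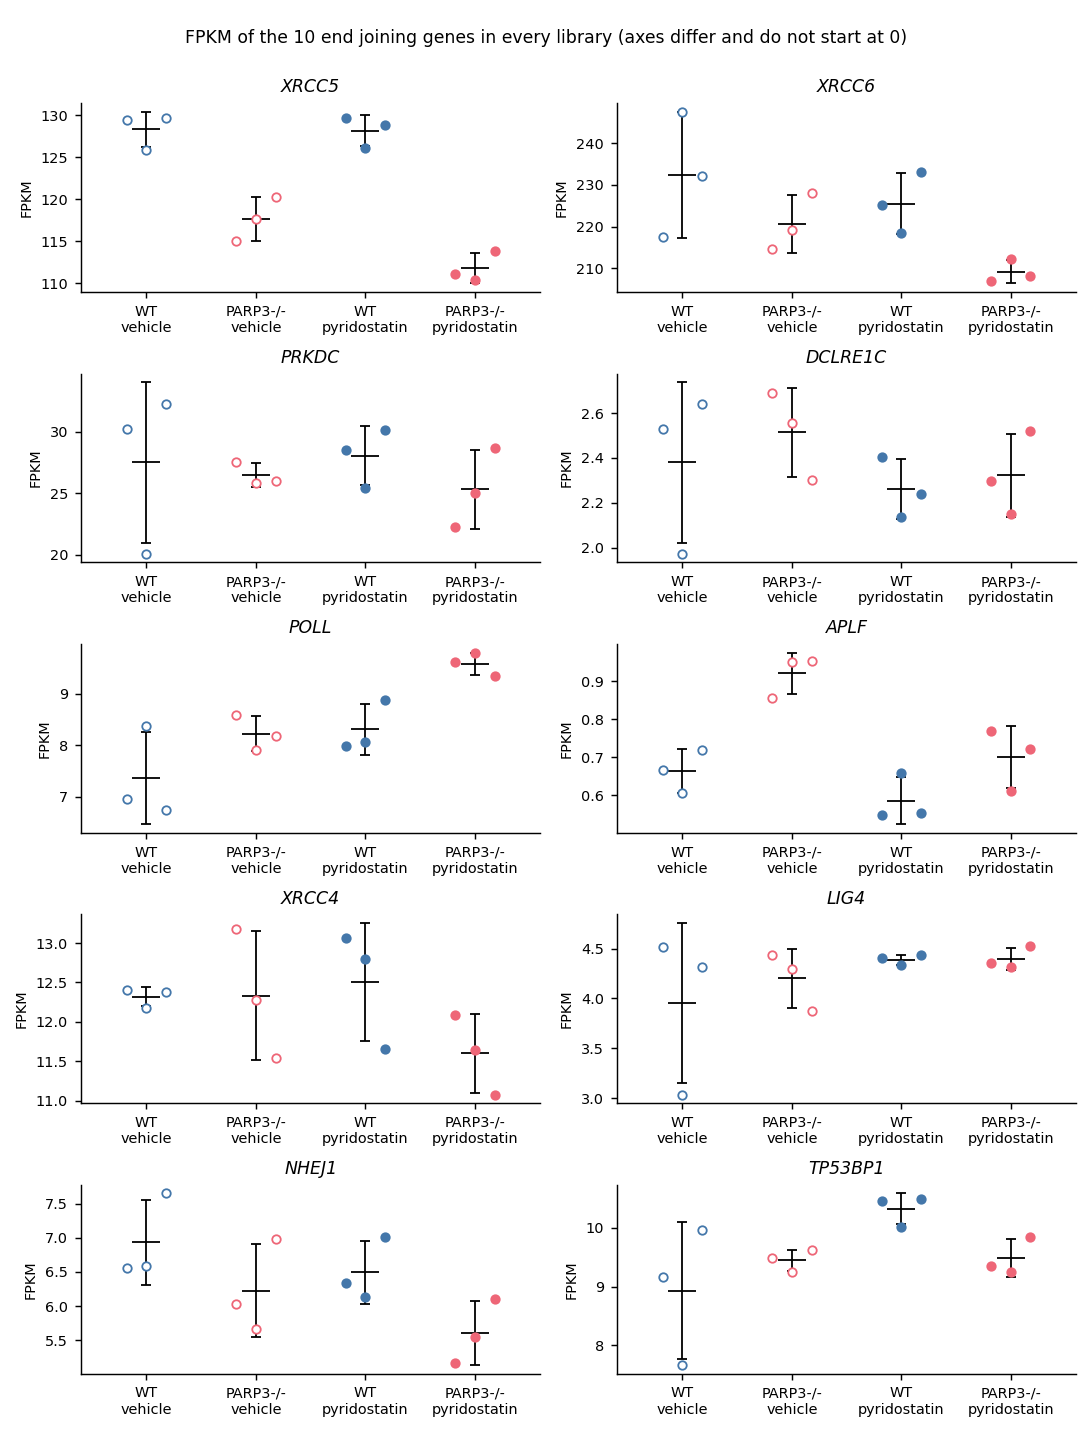
FPKM of each gene in the 12 libraries, 1 panel per gene, with wild-type libraries in blue, PARP3-/- in red, vehicle as open and pyridostatin as filled points, and the mean ± SD (n = 3) of each group in black. All 6 PARP3-/- values of XRCC5 lie below all 6 wild-type values, and the axes of the panels differ and do not start at 0.

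Few of these genes differed between groups, and none by as much as 1 on the log2 scale. With vehicle, 1 of the 9 tested genes passed an adjusted p of 0.05 in limma between the genotypes (XRCC5, lower), where 9.41% of all tested genes did. With pyridostatin it was again 1 of 9 (XRCC5, lower) against 10.9% of all tested genes. Averaged over both treatments, 2 of 9 passed (XRCC5 lower, POLL higher) against 19.1%. For pyridostatin against vehicle, 0 of 9 passed in wild-type cells (limma; 2 had an unadjusted p under 0.05) against 4.17%, and 0 of 9 in PARP3-/- cells (2 had an unadjusted p under 0.05) against 5.56%. Averaged over the genotypes, 1 of 9 passed (POLL, higher) against 13.9%. No gene of the 11881 had a genotype by pyridostatin interaction with an adjusted p under 0.05 (0%), and none of the 9 had an unadjusted p under 0.05 for it. These shares are close to those of all genes. The comparisons share groups, so their counts are not independent.

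**Figure D3:**
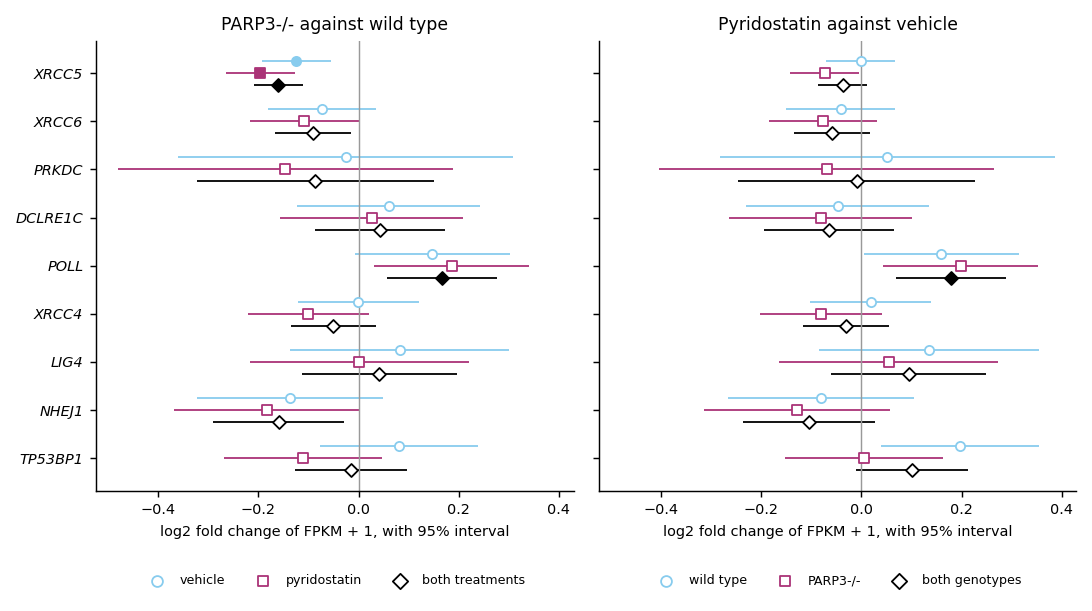
Log2 fold changes of FPKM + 1 for the 9 tested genes, for PARP3-/- against wild type (left) and pyridostatin against vehicle (right), in each stratum and averaged, with 95% intervals. Filled symbols have an adjusted p under 0.05, which holds for XRCC5 in the 3 genotype comparisons and for POLL in the averaged comparison of each panel.

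XRCC5 carried the clearest difference. Its level with vehicle was 129, 126 and 129.7 FPKM in wild-type replicates 1 to 3 and 115, 118 and 120.25 FPKM in PARP3-/- replicates. With added pyridostatin it was 129.7, 126 and 129 FPKM in wild-type and 111, 110.4 and 114 FPKM in PARP3-/- cells. Every PARP3-/- library was thus below every wild-type library, a separation of 6 from 6 that 9.67% of tested genes also showed. XRCC5 fell by 0.12 on the log2 scale with vehicle (SE 0.0312, limma adjusted p = 0.0303) and by 0.20 with pyridostatin (SE 0.0312, adjusted p = 0.00223). Averaged over treatments it fell by 0.16 (SE 0.0221, adjusted p = 4.39e-04), a change of −10.5% with a 95% interval of −13.5% to −7.42%. An exact permutation test of the level within treatments gave p = 0.005, the smallest possible. The averaged call was present in all 19 alternative fits (adjusted p = 1.71e-04 to 0.00615), but that with vehicle alone was lost in 8 of 20, namely with quantile normalization, with only the 6 vehicle libraries, and without wild-type vehicle replicate 1 or 3, PARP3-/- vehicle replicate 1 or 2, wild-type pyridostatin replicate 1 or PARP3-/- pyridostatin replicate 2 (values −0.12 to −0.11, adjusted p = 0.0515 to 0.148). With pyridostatin, XRCC5 in wild-type cells had a log2 fold change of −0.0014 (adjusted p = 0.989). In PARP3-/- cells the pyridostatin libraries all lay below the vehicle libraries, at a log2 fold change of −0.07 (SE 0.0312, adjusted p = 0.229), and the difference between the genotypes in this respect was −0.07 (interaction, SE 0.0441, adjusted p = 0.999).

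XRCC6, the partner of XRCC5 in Ku, followed the same order of group means without passing the test. With vehicle it stood at 217, 248 and 232 FPKM in wild-type and 215, 219 and 228 FPKM in PARP3-/- cells. With pyridostatin the values were 225, 218 and 233 FPKM in wild-type and 207, 212 and 208 FPKM in PARP3-/- cells. The genotypes overlapped with vehicle and not with pyridostatin, where 35.2% of all tested genes also did not overlap. Its averaged genotype fold change was −0.09 (log2, SE 0.0345, adjusted p = 0.0987), and an exact permutation test gave p = 0.025. Only the fit without wild-type vehicle replicate 1 passed the threshold (−0.11, adjusted p = 0.0296), a fit in which 18.4% of all tested genes passed. With pyridostatin the averaged fold change was −0.06 (SE 0.0345, adjusted p = 0.292), and −0.04 without wild-type vehicle replicate 2 (adjusted p = 0.398). GENCODE names 5 pseudogenes of XRCC6, so reads that match more than 1 copy could have been split, and its level is uncertain to that extent.

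Since the Ku subunits act as a pair, their ratio within a library, which no scaling between libraries changes, was compared too. The XRCC5 to XRCC6 ratio of FPKM with vehicle was 0.595, 0.509 and 0.559 in wild-type and 0.536, 0.537 and 0.527 in PARP3-/- cells. Pyridostatin libraries had 0.576, 0.577 and 0.553 in wild-type and 0.537, 0.520 and 0.547 in PARP3-/- cells. All 6 PARP3-/- ratios lay below 5 of the 6 wild-type ratios, and above that of wild-type vehicle replicate 2. The ratio was 4.77% lower in PARP3-/- cells over both treatments (exact permutation test within treatments, p = 0.075). Without wild-type vehicle replicate 2 the log2 difference was −0.10. The genotypes were then fully apart within each treatment, so the exact permutation p of 0.005 was the smallest possible. Pyridostatin gave a difference of 1.51% (log2 0.022, exact p = 0.625), and of −0.0085 on the log2 scale without that library (exact p = 0.71).

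**Figure D4:**
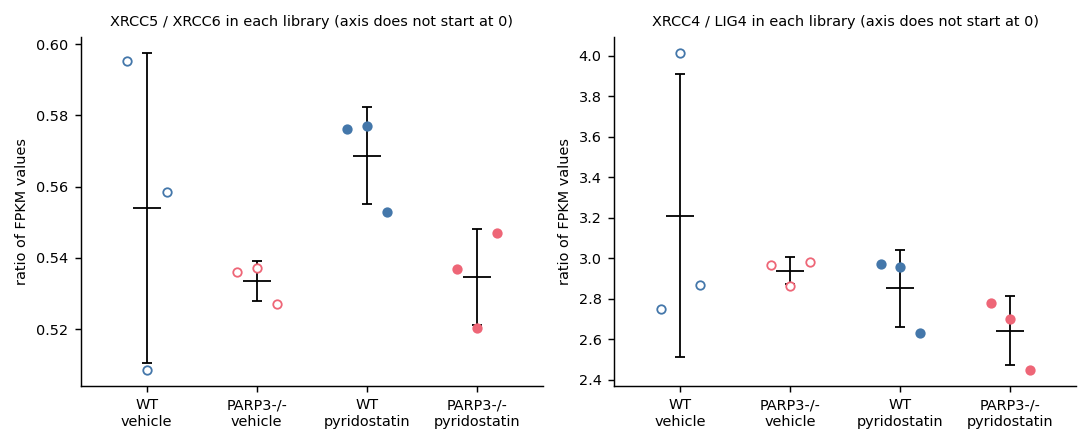
Ratio of FPKM values within each library for the Ku subunits (left) and for XRCC4 and LIG4 (right), by group, with the mean ± SD (n = 3) in black. In wild-type vehicle cells 1 library, replicate 2, has the lowest Ku ratio (0.509) and the highest XRCC4 to LIG4 ratio (4.01) of the 12, and neither axis starts at 0.

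PRKDC, the kinase that Ku recruits, varied most between wild-type vehicle libraries, at 30.3, 20.1 and 32.2 FPKM. PARP3-/- vehicle libraries had 27.6, 25.9 and 26.02 FPKM. With pyridostatin the levels were 28.5, 25.5 and 30.2 FPKM in wild-type and 22.2, 25.1 and 28.7 FPKM in PARP3-/- cells, and the groups overlapped in every comparison. The averaged genotype fold change was −0.09 (log2, SE 0.107, adjusted p = 0.648), with an interval of −20.0% to 10.99%, and that of pyridostatin was −0.01 (SE 0.107, adjusted p = 0.968). Without wild-type vehicle replicate 2 the genotype fold change of PRKDC was −0.19 (SE 0.0648, adjusted p = 0.0575) and that of pyridostatin −0.11 (SE 0.0648, adjusted p = 0.263).

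Of the genes that act on ends before ligation, POLL differed and DCLRE1C did not pass any test. POLL encodes the polymerase that fills gaps during end joining. With vehicle its levels were 6.95, 8.38 and 6.73 FPKM in wild-type and 8.58, 7.91 and 8.17 FPKM in PARP3-/- cells. With pyridostatin they were 7.98, 8.06 and 8.88 FPKM in wild-type and 9.61, 9.78 and 9.34 FPKM in PARP3-/- cells. The 3 PARP3-/- pyridostatin libraries were the highest of the 12 and did not overlap those of either group they were compared with, while wild-type vehicle replicate 2 was the one vehicle library of its genotype that reached the PARP3-/- range. POLL rose by 0.17 on the log2 scale in PARP3-/- cells averaged over treatments (SE 0.0495, adjusted p = 0.0380; 12.3%, interval 4.06% to 21.1%). It rose by 0.18 with pyridostatin averaged over genotypes (SE 0.0495, adjusted p = 0.0367; 13.2%, interval 4.94% to 22.1%). Exact permutation tests within strata, not adjusted for the number of genes, gave p = 0.02 and p = 0.015. Both calls were near the threshold, and each was lost in 14 of 19 alternative fits (values 0.13 to 0.18 with adjusted p = 0.0540 to 0.153, and 0.15 to 0.19 with adjusted p = 0.0538 to 0.112). For each, 10 of the 12 fits that left out a library lost the call. The exceptions were wild-type vehicle replicate 2 in both, wild-type pyridostatin replicate 3 between genotypes and PARP3-/- vehicle replicate 1 with pyridostatin. Without wild-type vehicle replicate 2, POLL passed in every comparison except the interaction, with a log2 fold change of 0.21 between genotypes (adjusted p = 0.00132) and 0.22 with pyridostatin (adjusted p = 0.00190), in a fit in which 27.2% and 19.2% of all tested genes passed. Between genotypes it was then at 0.23 with vehicle and 0.19 with pyridostatin (14% and 19.3% of all tested genes passed), and with pyridostatin at 0.25 in wild-type and 0.20 in PARP3-/- cells (5.98% and 13.1% passed).

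DCLRE1C, which encodes the nuclease Artemis, was at 2.53, 1.97 and 2.64 FPKM in wild-type and 2.69, 2.55 and 2.30 FPKM in PARP3-/- cells with vehicle. In pyridostatin libraries it was at 2.40, 2.14 and 2.24 FPKM in wild-type and 2.30, 2.15 and 2.52 FPKM in PARP3-/- cells. The groups overlapped in all 4 comparisons. Averaged fold changes were 0.04 between genotypes (log2, SE 0.0584, adjusted p = 0.679, interval −5.79% to 12.7%) and −0.06 with pyridostatin (SE 0.0584, adjusted p = 0.513). With wild-type vehicle replicate 2 left out they were −0.0017 (adjusted p = 0.984) and −0.11 (adjusted p = 0.124). GENCODE names 1 pseudogene of DCLRE1C.

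APLF, the scaffold with a zinc finger that binds poly(ADP-ribose), was the least abundant and varied most. With vehicle it was at 0.666, 0.604 and 0.719 FPKM in wild-type and 0.857, 0.951 and 0.953 FPKM in PARP3-/- cells. Levels with pyridostatin were 0.546, 0.657 and 0.552 FPKM in wild-type and 0.768, 0.611 and 0.721 FPKM in PARP3-/- cells. The 3 PARP3-/- vehicle libraries lay above the other 9, with a mean 1.39 times that of wild-type vehicle cells, and the PARP3-/- pyridostatin mean was 0.761 times the PARP3-/- vehicle mean. With vehicle, APLF and XRCC5 were the 2 of 10 genes whose genotypes did not overlap, where 24.2% of tested genes did not. Exact permutation tests gave p = 0.01 for genotype within treatments and p = 0.01 for pyridostatin within genotypes. APLF was below the filter, so limma gave it values only in a fit without one, over 19332 genes. There the log2 fold change of FPKM + 1 between genotypes was 0.21 with vehicle (SE 0.0453, adjusted p = 0.0222; 7.09% of genes passed) and 0.15 averaged (SE 0.0320, adjusted p = 0.0100; 14.1% passed). For pyridostatin averaged over genotypes it was −0.12 (SE 0.0320, adjusted p = 0.0453; 8.18% passed), and in PARP3-/- cells alone −0.18 (adjusted p = 0.0746; 3.22% passed). The averaged pyridostatin call was lost with a pseudocount of 0.1 (adjusted p = 0.0951) and with the replicate block (adjusted p = 0.0832), and the value in PARP3-/- cells passed without wild-type vehicle replicate 2 (adjusted p = 0.0497). The averaged genotype call was also made with a pseudocount of 0.1 (adjusted p = 0.0268), without wild-type vehicle replicate 2 (adjusted p = 0.0178) and with the replicate number as a block (adjusted p = 0.0262), but the call with vehicle alone was lost in all 3 (adjusted p = 0.0511 to 0.0611). At 53 reads, counting error alone is about 13.7% of the value of APLF.

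No gene of the ligation complex passed the test in these comparisons. XRCC4, which holds and stabilizes the ligase, was at 12.4, 12.2 and 12.4 FPKM in wild-type and 13.2, 12.3 and 11.5 FPKM in PARP3-/- cells with vehicle. After pyridostatin it was at 13.1, 12.8 and 11.7 FPKM in wild-type and 12.1, 11.6 and 11.1 FPKM in PARP3-/- cells. All groups overlapped, and the averaged fold changes were −0.05 between genotypes (log2, SE 0.0387, adjusted p = 0.437, interval −8.98% to 2.49%) and −0.03 with pyridostatin (SE 0.0387, adjusted p = 0.642).

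LIG4, the ligase itself, was at 4.51, 3.03 and 4.31 FPKM in wild-type and 4.44, 4.29 and 3.87 FPKM in PARP3-/- cells with vehicle. With pyridostatin the 6 libraries ran only from 4.31 to 4.52 FPKM, at 4.40, 4.33 and 4.43 FPKM in wild-type and 4.35, 4.31 and 4.52 FPKM in PARP3-/- cells. Wild-type vehicle replicate 2 was the lowest of the 12 and set the spread of its group. The averaged fold changes of LIG4 were 0.04 between genotypes (log2, SE 0.0700, adjusted p = 0.750, interval −7.54% to 14.6%) and 0.09 with pyridostatin (SE 0.0700, adjusted p = 0.414). Without that library they were −0.03 (SE 0.0338, adjusted p = 0.576) and 0.02 (SE 0.0338, adjusted p = 0.667).

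The XRCC4 to LIG4 ratio was 2.75, 4.01 and 2.87 in wild-type and 2.97, 2.86 and 2.98 in PARP3-/- cells with vehicle. With pyridostatin it was 2.97, 2.95 and 2.63 in wild-type and 2.78, 2.70 and 2.45 in PARP3-/- cells. It differed by −7.24% between genotypes (exact permutation test, p = 0.29) and by −10.1% with pyridostatin (exact p = 0.105), and leaving out wild-type vehicle replicate 1 took the latter p to 0.03. Without wild-type vehicle replicate 2, whose ratio was the highest, the log2 differences went from −0.11 to −0.023 between genotypes (exact p = 0.675) and from −0.15 to −0.067 with pyridostatin (exact p = 0.24).

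NHEJ1 encodes XLF, which forms filaments with XRCC4 across the ends. With vehicle it was at 6.56, 6.59 and 7.65 FPKM in wild-type and 6.03, 5.66 and 6.98 FPKM in PARP3-/- cells. With added pyridostatin it was at 6.33, 6.13 and 7.02 FPKM in wild-type and 5.16, 5.55 and 6.10 FPKM in PARP3-/- cells. The genotypes overlapped with vehicle and were apart with pyridostatin, one of 5 such genes among the 10 (35.2% of tested genes; XRCC5, XRCC6, POLL, NHEJ1 and TP53BP1). Replicate 3 was the highest of its group in all 4 groups. Averaged over treatments the genotype fold change was −0.16 (log2, SE 0.0594, adjusted p = 0.0911, interval −18.3% to −1.93%), close to that of XRCC5 in size with a larger error, and the exact permutation test gave p = 0.035. It passed in 4 of 19 alternative fits, with quantile normalization, a common median, the replicate block and without PARP3-/- vehicle replicate 3 (adjusted p = 0.00748 to 0.0439), fits in which 19.9% (quantile) and 18.3% (block) of all tested genes passed. The fold change with pyridostatin was −0.10 (SE 0.0594, adjusted p = 0.278).

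TP53BP1, which sits upstream and decides between joining and resection, had 9.16, 7.66 and 9.97 FPKM in wild-type and 9.48, 9.25 and 9.62 FPKM in PARP3-/- cells with vehicle. With pyridostatin it had 10.5, 10.02 and 10.5 FPKM in wild-type and 9.36, 9.25 and 9.85 FPKM in PARP3-/- cells. The wild-type pyridostatin libraries were the highest 3 of the 12, and TP53BP1 was the 1 gene of the 10 whose pyridostatin and vehicle libraries were apart in wild-type cells, where 23.1% of tested genes were. Its log2 fold change with pyridostatin was 0.20 in wild-type cells (SE 0.0713, adjusted p = 0.158) and 0.0051 in PARP3-/- cells (SE 0.0713). The difference between these was −0.19 (interaction, SE 0.101, adjusted p = 0.999). Leaving out wild-type vehicle replicate 2, where TP53BP1 was lowest, the fold change in wild-type cells was 0.10 (SE 0.0429, adjusted p = 0.194) and the interaction −0.10 (SE 0.0575, adjusted p = 0.578). Averaged over genotypes, the fold change with pyridostatin was 0.10 (SE 0.0504, adjusted p = 0.216), and 0.05 without that library (adjusted p = 0.229). Between genotypes, averaged over treatments, it was −0.02 (SE 0.0504, adjusted p = 0.883), and −0.06 without that library (adjusted p = 0.139). In PARP3-/- cells the 4 genes whose pyridostatin and vehicle libraries were apart were XRCC5, XRCC6, POLL and APLF, where 32.3% of tested genes were.

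Because the PARP3-/- cells are a cloned line, the tested genes on either side of each member were examined in RefSeq gene order, as a description without a test. Of the 20 genes nearest XRCC5 on chromosome 2, 17 were lower in PARP3-/- cells, with a median log2 fold change of −0.08 over both treatments, where all tested genes had a median of 0.01 and 44.97% were below 0. Of all tested genes, 6.95% had an adjusted p under 0.05 as lower and 12.2% as higher. Of the 20 near XRCC5, 7 passed as lower and 1 as higher. Those with the largest change were CPS1, which makes carbamoyl phosphate in the urea cycle (−2.71), IGFBP2, which binds insulin-like growth factors (−0.50), LANCL1 (−0.28), the ribosomal protein gene RPL37A (−0.27) and FN1, which encodes fibronectin (0.20). With 5 genes on either side the median was −0.12, and with 20 it was −0.06. Over chromosome 2 as a whole, 55.6% of 753 tested genes were lower, with a median of −0.02, and 95 passed as lower and 79 as higher. NHEJ1 lies on the same chromosome with 16 tested genes between it and XRCC5, so the neighborhoods share genes. Around NHEJ1, 12 of 20 genes were lower, with a median of −0.02. Of these 20, 2 had an adjusted p under 0.05, against 19.1% of all tested genes. The neighbors of POLL on chromosome 10 had a median of 0.03, and among them SFXN3, a mitochondrial serine carrier, was higher (0.44), while LINC00263 (−0.26) and SEMA4G (−0.19) were lower. The medians around the other members lay between −0.04 and 0.04. The part of the neighborhood in the XRCC5 value was not tested.

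**Figure D5:**
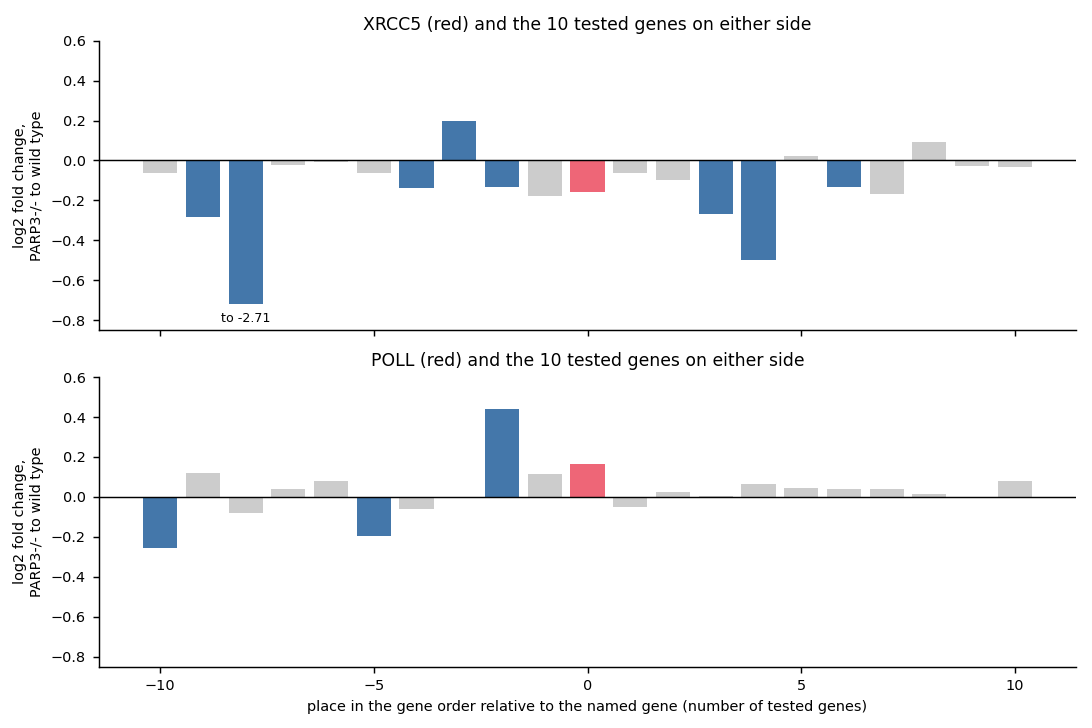
Log2 fold change between genotypes, averaged over treatments, for XRCC5 and POLL (red) and the 10 tested genes on either side of each in gene order, with genes at an adjusted p under 0.05 in blue and the others in gray. The bar of CPS1 is drawn short and carries its value (−2.71), and 17 of the 20 bars beside XRCC5 lie below 0.

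Since pyridostatin binds G4 DNA, the promoters of these genes were searched for the letters of a G4 motif, which are 4 runs of at least 3 G with 1 to 7 bases between them, on either strand from 250 bases before to 50 after the start. RefSeq windows (GRCh38.p14) were used for 8 of the 10 genes, some of which have more than 1 start, and those of XRCC5 and PRKDC were not analysed here. Of the 8, 4 held a match (POLL, TP53BP1, LIG4 and NHEJ1), against 27.9% of the 27305 genes with a window and 41.6% of those tested. The match nearest a start is shown for each, since these are the letters the search turned on, 5′ to 3′ on the strand that carries it, with the runs of 3 or more G in capitals.
POLL, chr10:101588458-101588479, strand opposite to the gene: GGGaaGGGcctcaGGGcctGGG
TP53BP1, chr15:43510773-43510799, strand opposite to the gene: GGGGaGGGcgtggtGGGaggaaGGGGG
LIG4, chr13:108215427-108215458, strand of the gene: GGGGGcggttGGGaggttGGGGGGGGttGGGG
NHEJ1, chr2:219160568-219160586, strand of the gene: GGGGGaGGGGtGGGcGGGG

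The averaged log2 fold changes with pyridostatin of these 4 genes were 0.18 for POLL, 0.10 for TP53BP1, 0.09 for LIG4 and −0.10 for NHEJ1. Those of TP53BP1 and LIG4 were 0.05 and 0.02 without wild-type vehicle replicate 2. Of the 4, that of POLL passed the test. Over all tested genes with a window, the median was 0.013 with a match and −0.0032 without. XRCC6, XRCC4, DCLRE1C and APLF had no match in theirs, and with up to 12 bases between the runs 6 of 8 genes matched, where 40.6% of all genes and 58.4% of those tested did.

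Genes that share a role with the 10 were read for comparison, in lists made by role. Of 11 other end joining factors, 9 were tested, and none passed between genotypes. Of all tested genes, 9.41% did with vehicle, 10.9% with pyridostatin and 19.1% averaged over treatments. With pyridostatin averaged over genotypes, 2 of the 9 factors were lower, where 6.24% of all tested genes passed in that direction. They were SETMAR, a histone methyltransferase that aids joining (log2 fold change −0.15, SE 0.0353, limma adjusted p = 0.0179), and CYREN, listed as C7orf49, an inhibitor of the pathway (−0.13, adjusted p = 0.0424). Leaving out 1 library at a time gave 1 to 3 as lower, and the other alternatives 1 to 4. The largest change in that list was that of PAXX, listed as C9orf142, a paralog of XRCC4 that binds Ku, at −0.23 with pyridostatin in wild-type cells (adjusted p = 0.171). PAXX was at 67.7 FPKM in wild-type vehicle replicate 2, against 51.5 and 55.8 FPKM in replicates 1 and 3. Without replicate 2, SETMAR (−0.15, limma adjusted p = 0.0212) and PAXX (−0.13, adjusted p = 0.0375) passed as lower averaged over genotypes, and CYREN did not. In that fit 8.99% of all tested genes passed in that direction. Of 10 tested partners of 53BP1, none passed in any comparison, where from 0% to 19.1% of all tested genes passed in a single comparison. The largest change was in MAD2L2, a shieldin subunit, at −0.15 between genotypes with pyridostatin (adjusted p = 0.143). MDC1 is listed at 0 in all 12 libraries, and whether its transcript was absent or not counted was not tested.

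Alternative end joining uses short stretches of homology and does not need Ku. All 10 of its listed genes were tested. Averaged over genotypes, 5 of 10 fell with pyridostatin (limma, adjusted p under 0.05), where 6.24% of all tested genes passed in that direction, and 8.95% with libraries shifted to a common median, a fit in which 5 of 10 were also lower. These were FEN1, a flap nuclease (log2 fold change −0.21, adjusted p = 0.00293), RBBP8, which encodes the resection factor CtIP (−0.15, adjusted p = 0.0165), the scaffold XRCC1 (−0.11, adjusted p = 0.00909), the ligase gene LIG1 (−0.11, adjusted p = 0.0129) and PARP1, which encodes the main poly(ADP-ribose) polymerase (−0.09, adjusted p = 0.0431). Leaving out 1 library at a time gave 4 to 6 of 10. In PARP3-/- cells alone the same 5 genes passed, where 2.52% of all tested genes passed in that direction, but leaving out any 1 of the 6 PARP3-/- libraries took this to between 0 and 2 of 10. In wild-type cells 0 of 10 passed (limma), against 4.17% of all tested genes, and 0 of 10 had an interaction, so a difference between the genotypes was not shown. No gene of the list passed between genotypes, where from 9.41% to 19.1% of all tested genes passed in a single comparison. Among 14 proliferation genes, 10 fell with pyridostatin averaged over genotypes, MCM2 to MCM7 and E2F1 among them, and their part in the lower FEN1 and LIG1 values was not tested. Without wild-type vehicle replicate 2, NBN, which senses broken ends, passed as well in PARP3-/- cells (−0.13, adjusted p = 0.0252) and in wild-type cells (−0.14, adjusted p = 0.0462), LIG3 (−0.11) and RBBP8 (−0.09) passed as lower between genotypes averaged over treatments, and LIG1 (0.10, adjusted p = 0.0396) as higher between genotypes with vehicle. In that fit 4 partners of 53BP1 also passed in at least 1 comparison, namely RIF1, RNF168, MAD2L2 and FAM35A, all of them lower, where from 5.98% to 27.2% of all tested genes passed in a single comparison.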

How the data were processed

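RNA was taken from 3 biological replicates of each of 4 groups, so p-values measure the spread between replicate cultures of 1 wild-type and 1 PARP3-/- line. Libraries were made with a stranded mRNA kit and read as single ends of 75 bases. Per the labels, the submitters' processing notes name bcl2fastq 2.16, STAR 2.5 and Cufflinks, and the builds hg19 and mm9. The values used here are FPKM per gene as deposited by the authors, 1 column per library and no pooled columns. The authors' own test used read counts, which were not used here. Of 25365 gene rows, 6033 were at 0 in every library. Some symbols were repeated, and shares of genes whose groups did not overlap were taken over 11879 tested genes, each symbol counted once.

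Values were taken as log2(FPKM + 1), which understates the change of low genes, and the 11881 genes that averaged 1 FPKM or more were kept. limma 3.58.1 in R 4.3.3 was fitted to all 12 libraries with 4 group means, a mean-variance trend and 7 contrasts, and p-values were adjusted by Benjamini-Hochberg over all genes tested, with a threshold of 0.05. Group differences of single values (levels, ratios) were tested by exact two-sided permutation, within treatments or genotypes where both were pooled (400 arrangements, smallest p 0.005) and otherwise with 20 arrangements (smallest p 0.1). With a library left out there were fewer arrangements. The code was tested on simulated data with 200 changed genes. For the genotypes with vehicle it called 15 of 50 changes of 0.25 on the log2 scale and 45 of 50 changes of 0.5. Read numbers were estimated from the steps between low values and are approximate. Transcript lengths, gene order and promoters came from reference annotation (lengths for 93.7% and gene order for 98.2% of tested genes), and since its build differs from that of the files, it served only for lengths, order and promoter sequence. Motif searches used Python 3.11.15.

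All 10 end joining genes are described. Other genes were named where they passed the threshold within a list, had the largest change in a list without calls, or were among the 5 neighbors with an adjusted p under 0.05 and the largest change. The genes and lists were chosen with earlier results of these data known. Alternatives were a pseudocount of 0.1, no filter, a floor of 5 FPKM on the mean, normalization to common quantiles, a common median, no trend, a replicate block, only the libraries compared and leaving out each library. Those for APLF, and the lists' counts under these alternatives, were added after the data were seen. Samples with the same replicate number in compared groups had correlations of their deviations between −0.120 and 0.216, and the numbers were not taken as pairs. SHLD3, a shieldin gene, was not analysed here.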

Additional observations from a re-analysis of the deposited data

How the results depend on the processing

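No alternative turned the direction of a called value. The averaged genotype difference of XRCC5 and that with pyridostatin passed in all alternatives, as did the averaged genotype difference of APLF in its 3 alternatives, whereas the POLL calls, that of XRCC5 with vehicle, and those of APLF with vehicle and for pyridostatin did not, as given above. The cause was not tested.

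For the genotypes with vehicle, the end joining genes called were 2 without a filter (7.09% of all genes), 0 with quantile normalization (9.98%) and 0 with only the libraries compared (4.48%; main 1). With pyridostatin they were 2 with the replicate block (10.2%; main 1), NHEJ1 being added (adjusted p = 0.0307). For pyridostatin they were 1 in PARP3-/- cells with only the libraries compared (7.42%; main 0), and averaged over genotypes 0 with quantile normalization (13.4%), 0 with a common median (14.9%) and 0 with the replicate block (13.3%; main 1). Leaving out 1 library gave 0 to 2 between genotypes with vehicle, 1 to 2 with pyridostatin and 1 to 2 averaged, and 0 to 1 for pyridostatin in wild-type cells, in PARP3-/- cells and averaged. Over all genes it gave 741 to 1657 between genotypes with vehicle (main 1118), 805 to 2294 with pyridostatin (main 1297), 179 to 710 for pyridostatin in wild-type (main 495) and 254 to 1554 in PARP3-/- cells (main 661), and 0 to 1 for the interaction (main 0). With only the libraries compared, 532 genes passed between genotypes with vehicle and 65 for pyridostatin in wild-type cells, and 1 gene had an interaction with a pseudocount of 0.1 and 1 without a filter. Of the end joining genes, the block changed calls of NHEJ1 (between genotypes with pyridostatin and averaged), POLL (both averaged calls) and APLF (with vehicle and averaged for pyridostatin), and no others. With a common median, 1055 genes were higher and 1253 lower between genotypes averaged (main 1449 and 826), and 706 higher and 1063 lower with pyridostatin averaged (main 916 and 741).

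The log2 difference of the Ku ratio between genotypes ran from −0.10 to −0.044 with 1 library left out, and that of the XRCC4 to LIG4 ratio with pyridostatin from −0.20 to −0.067. With 5 neighbors on either side, medians were −0.12 around XRCC5, −0.051 around PRKDC, 0.10 around LIG4, −0.017 around DCLRE1C and −0.071 around TP53BP1, and with 20 on either side 0.0070 around DCLRE1C. With runs of at least 2 G, 8 of 8 promoters matched, as did 82.7% of all genes and 97.4% of those tested. FPKM hold no counts, so depth is approximate, and the low levels of APLF and DCLRE1C limit what could be detected. Small changes were also seldom called in the simulated data (30% of those of 0.25 on the log2 scale).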

Other observations

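The summed level of the 10 end joining genes, most of it Ku, ran from 419.8 to 438.5 FPKM in wild-type vehicle, from 402 to 418 FPKM in PARP3-/- vehicle, from 414 to 437 FPKM in wild-type pyridostatin and from 384 to 395 FPKM in PARP3-/- pyridostatin libraries. The PARP3-/- pyridostatin libraries thus had the lowest 3 sums of the 12. For 8 of the 9 tested genes the genotype by pyridostatin term was negative, with a median of −0.07 on the log2 scale against −0.01 over all tested genes, of which 53.2% were negative, and none of these passed the test (limma; 0 with an unadjusted p under 0.05). Without wild-type vehicle replicate 2 the term was negative for 6 of 9, with a median of −0.05, and those of PRKDC, LIG4 and DCLRE1C were then above 0. In the main fit a median below 0 was not particular to the end joining genes. It was −0.12 for alternative end joining, −0.10 for p53 targets and −0.07 for proliferation genes. For the partners of 53BP1 it was −0.05, and for the other end joining factors −0.03.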
